A study of Mus musculus with 28 samples.

Results

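Ribosome-bound RNA, pulled down by a tag aimed at cortical layer 5 neurons, was compared in mice between chronic experimental autoimmune encephalomyelitis (EAE) and health. Markers of other cell types were also present in the pulldown, as given below. The comparison holds 9 of the 28 libraries of the series, the 4 pulldown libraries of the chronic phase against the 5 pulldown libraries of the healthy group, chosen by their titles, and all genes of the deposited count table. The mice of every group carried the Glt25d2 BacTRAP transgene, in which regulatory sequence of Glt25d2 (now Colgalt2), a gene of layer 5 projection neurons, drives a tagged ribosomal protein. Tagged ribosomes were pulled down with the RNA bound to them (immunoprecipitated fraction, IP), and total RNA before the pulldown is the input. EAE was induced by immunisation with MOG35-55, a myelin peptide; chronic animals were sampled 30 days later, healthy animals had no EAE, and the acute group of the series was taken at 15 days. Whether each library stands for its own mouse or for pooled mice is not given in the labels, nor are age or sex. The p-values therefore measure the spread between these libraries, which may be technical.

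EAE is a model of multiple sclerosis in which T cells directed at myelin drive inflammation and demyelination, first as an acute attack and then as a lasting phase with damage to axons. Layer 5 projection neurons send long axons to the brainstem and spinal cord, need much ATP for transport and firing, and are filled with neurofilaments. Inflamed tissue makes interferons, which switch on genes of antigen presentation and antiviral defence, and neurons can respond to them.

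The 9 IP libraries held 11396791 to 19309770 counts on genes, with at least 1 count for 10933 to 13746 genes in chronic and 11087 to 14416 in healthy libraries. The difference in genes detected was within the spread between libraries (two-sided exact permutation test, p = 0.444, adjusted p = 0.667 over the 6 single values tested, with 0.00794 the smallest p that 4 against 5 libraries allow). The IP libraries were noisy, with a biological coefficient of variation of 1.06 against 0.101 in input. Sampling noise did not account for the difference within any of the 16 same-group pairs. That cannot tell separate animals from repeated pulldowns of 1 source, and each library was taken as 1 replicate. Among the chronic libraries, chronic 4 stood apart, with the highest summed level of astrocyte, oligodendrocyte and microglia markers (values with the cell type markers, where results with and without it are given).

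Of 13914 genes tested, 25 were higher in chronic than in healthy IP (0.180%) and 1 was lower (0.00719%) by edgeR's quasi-likelihood test at an adjusted p under 0.05. The genes that rose code for enzymes of sugar and mitochondrial metabolism (Pygb, Pfkp, Aldoc, Pcx, Ogdhl, Aldh2), mitochondrial and peroxisomal upkeep (Lrpprc, Immt, Lonp2), the neurofilament chains Nefm and Nefl, membrane traffic (Copg1, Ap3b2, Atp6v1a), ion and signalling proteins (Slc8a2, Ptk2b, Gad1), protein quality control (Ubr4, Hsph1) and antigen presentation (H2-K1), and also included Aplp2, Bcas3 and Enpp2. Log2 changes of those 25 ran from 0.75 to 3.25, and Jpt1 was the gene that fell. In all 26 the 4 chronic and 5 healthy libraries did not overlap in CPM (counts scaled to a common library size). Over all genes, every chronic library lay above every healthy one for 397 (2.85%) and below for 272 (1.95%), and the median log2 change was -0.03. At an unadjusted p under 0.05 stood 725 higher and 769 lower of the 13914 genes. The counts per list given below are to be read beside these shares over all genes, and 1 such member is no result about a list. Of the 26 called genes, 24 were in the top 1 of 5 equal groups of genes by abundance. With only genes of at least 50 CPM tested, 157 were called. Several lists, such as glycolysis, hold abundant genes, and the shares among equally abundant genes were not computed.

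The count of called genes moved with single libraries. Without chronic 3 and healthy 5, the 2 compared libraries with the fewest genes detected, 2 genes were called. It was 43 without chronic 1, 14 without chronic 2, 12 without chronic 3, 13 without chronic 4, 10 without healthy 1, 9 without healthy 3 and 13 without healthy 5. All 26 genes kept their direction in each of these fits, and 9 were called in all 9 fits that left out 1 library, among them Pygb, Pcx, Aldh2, Ogdhl, Pfkp, Copg1, Ptk2b and Nefm. Lrpprc was called in 7 of the 9 fits, Bcas3, Lonp2 and Aldoc in 5 and Hsph1 in 4. H2-K1 and Gad1 were called in 3, Slc8a2, Atp6v1a, Nefl, Ubr4 and Jpt1 in 2, and Aplp2, Enpp2, Ap3b2 and Immt in 1. Where a called gene's adjusted p without 1 library is given below, it is the largest of the 9. The spans of annotated genes on the other strand overlap Pcx (Lrfn4), Pfkp (Pitrm1), Bcas3 (Bcas3os1, Bcas3os2 and 2610027K06Rik), Copg1 (Gm26636), Lonp2 (Gm16177) and Ubr4 (2700016F22Rik). Emc1 overlaps Ubr4 on the same strand. Reads in any exons shared by such genes cannot be assigned. The DESeq2 Wald test on the same genes called 211 higher and 76 lower. It gave no adjusted p for some genes, H2-K1 among them, and could not call those. The lists below can hold such genes, so a list without a DESeq2 call is no negative test of them.

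**Figure D1:**
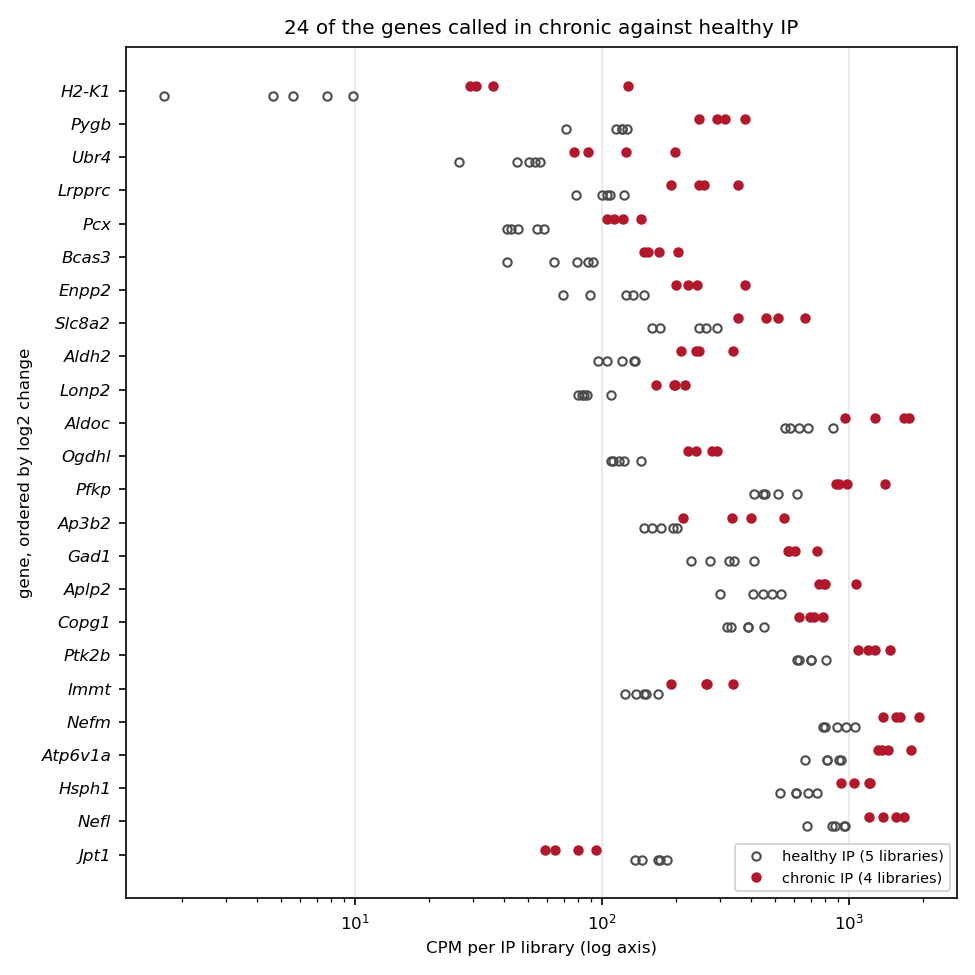
CPM of 24 of the 26 called genes in each IP library on a log axis, with filled points for the 4 chronic and open points for the 5 healthy libraries, ordered by log2 change. The groups do not overlap for any of the 24 genes, and Jpt1 is the gene with its chronic libraries below.

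The largest change was that of H2-K1, a classical MHC class I heavy chain that presents peptides to CD8 T cells (chromosome 17, 33996017 to 34000333, minus strand, GRCm38). It had 36.1, 29.2, 31.0 and 127 CPM in chronic libraries 1 to 4, and 1.68, 4.66, 7.73, 5.59 and 9.77 CPM in healthy libraries 1 to 5. Chronic 4 held the highest value, and the lowest chronic value was above the highest healthy one. The log2 change was 3.25 ± 0.61 (SE, edgeR adjusted p = 0.0267), and without chronic 4 it was 2.45 with an adjusted p of 0.156. H2-K1 belongs to a family of near-identical genes, so its reads may be split among copies.

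Of 31 interferon response genes tested, 1 was called and 6 had every chronic library above every healthy one (2.85% over all genes). The median log2 change was 1.88, and 1.38 without chronic 4. Ifit3, an interferon-induced antiviral protein, stood just outside the threshold at 6.44, 47.7, 46.0 and 29.4 CPM in chronic and 4.32 to 10.9 CPM in healthy libraries (log2 change 2.37, edgeR adjusted p = 0.0546). Its groups overlapped through chronic 1. Summed over the interferon list, the chronic libraries held 195, 444, 315 and 475 CPM and the healthy libraries 100.9 to 137 CPM.

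Antigen presentation genes other than H2-K1 were not called. The 15 class I genes tested had a median log2 change of 1.62 (0.27 without chronic 4). With only the 9 compared libraries in the fit it was 1.05 over 12 genes. The 5 class II genes tested had a median of 2.13, which turned to -0.06 without chronic 4. With only the 9 compared libraries it was 1.88 over 4 genes. None of the 5 class II genes passed in edgeR, against 2 at an unadjusted p under 0.05. DESeq2 called 0 of them, but it gave no adjusted p for Cd74. Cd74, the invariant chain of class II molecules, had 4.73, 5.77, 32.7 and 70.3 CPM in chronic libraries, 1.43 CPM in healthy 2 and 0 in the other healthy libraries (log2 change 6.60 ± 1.47, edgeR adjusted p = 0.0629). Its 4 chronic values were above all healthy ones. C4b, a complement component, had 24.1, 23.9, 6.25 and 140 CPM in chronic and 0 to 5.81 CPM in healthy libraries (edgeR adjusted p = 0.189). The complement list had 0 of 10 called in edgeR and 2 at an unadjusted p under 0.05. DESeq2 called 0, but it gave no adjusted p for C4b. The complement median was 1.01, and -0.07 without chronic 4. With only the 9 compared libraries it was 0.51 over 7 genes.

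Sugar metabolism held the gene with the smallest adjusted p, Pygb, the brain form of glycogen phosphorylase, which releases glucose units from glycogen (chromosome 2, 150786735 to 150831758, plus strand). It had 248, 315, 292 and 380 CPM in chronic and 114, 121, 121, 126 and 71.6 CPM in healthy libraries. All chronic values were far above the highest healthy value, and healthy 5 was the lowest. The log2 change was 1.48 ± 0.20 (edgeR adjusted p = 0.00484). Of 9 glycogen genes tested, a list added after the data were seen, Pygb was called and 7 had a positive log2 change, with a median of 0.84.

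Pfkp, a form of phosphofructokinase, which commits sugar to glycolysis (chromosome 13, 6579768 to 6648777, minus strand), had 916, 1398, 885 and 986 CPM in chronic and 449, 414, 519, 614 and 459 CPM in healthy libraries. The log2 change was 1.09 ± 0.17 (edgeR adjusted p = 0.00695), with no overlap. Aldoc, aldolase C, had 967, 1756, 1271 and 1674 CPM in chronic and 550, 628, 579, 680 and 861 CPM in healthy libraries (log2 change 1.10 ± 0.19, adjusted p = 0.0110). Chronic 1 and healthy 5 came closest to each other. Aldoc is also an astrocyte marker, and the summed astrocyte markers were higher in every chronic library, which is given with the cell type markers. Its part in the Aldoc result was not tested.

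Of 18 glycolysis genes, 2 were called higher (Pfkp and Aldoc) and none lower. Every chronic library was above every healthy one for 9 of the 18 (2.85% over all genes). For 16 the log2 change was positive, and the median was 0.47 in IP against -0.07 in input. DESeq2 called 7 of the 18 higher. The median was 0.50 without chronic 4 and 0.51 with an offset for gene length, an alternative added after the data were seen.

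In mitochondria, the citric acid cycle and its supply held called genes. Pcx, pyruvate carboxylase, which refills the cycle with oxaloacetate (chromosome 19, 4510472 to 4621752, plus strand), had 112, 144, 105 and 121 CPM in chronic and 45.9, 42.8, 54.8, 58.5 and 41.5 CPM in healthy libraries (log2 change 1.31 ± 0.22, edgeR adjusted p = 0.00768). Its lowest chronic value was above its highest healthy one. Of 24 genes of the cycle and of pyruvate entry, 2 were called higher and 6 had chronic libraries above all healthy ones (2.85% over all genes). The list median was 0.19 (input -0.07).

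Ogdhl, related to the oxoglutarate dehydrogenase of the cycle, had 241, 294, 279 and 224 CPM in chronic and 109, 118, 111, 144 and 123 CPM in healthy libraries (log2 change 1.10 ± 0.17, edgeR adjusted p = 0.00695). Aldh2, the mitochondrial aldehyde dehydrogenase that clears reactive aldehydes, had 241, 341, 209 and 247 CPM in chronic and 96.4 to 136 CPM in healthy libraries (1.13 ± 0.18, adjusted p = 0.00695). Each chronic library exceeded each healthy library for both genes.

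Lrpprc, which stabilises the messenger RNAs made inside mitochondria (chromosome 17, 84705247 to 84790789, minus strand), had 191, 356, 246 and 258 CPM in chronic and 105, 123, 78.4, 99.7 and 108 CPM in healthy libraries. Its log2 change was 1.35 ± 0.23 (edgeR adjusted p = 0.00873, and 0.0587 without chronic 2). Immt, the core of the complex that shapes inner membrane cristae, had 190, 340, 267 and 265 CPM in chronic and 124 to 169 CPM in healthy libraries (0.87 ± 0.18, adjusted p = 0.0457). Immt was called in 1 of the 9 fits without a library, and its adjusted p reached 0.183 without chronic 2. Lonp2, a protease of peroxisomes, had 197, 196, 216 and 166 CPM in chronic and 79.9 to 109 CPM in healthy libraries (1.13 ± 0.20, adjusted p = 0.0142, and 0.0749 without chronic 3). The groups of these 3 genes did not overlap.

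Nuclear-encoded subunits of the respiratory chain gave no call. Of 37 complex I subunits, 0 passed in edgeR, 3 higher and 1 lower stood at an unadjusted p under 0.05, DESeq2 called 1, and the median log2 change was -0.37, or -0.01 with the length offset. Ndufs1, the largest subunit of the peripheral arm, with 8086 bases of annotated exons, had 256, 356, 317 and 262 CPM in chronic and 127 to 221 CPM in healthy libraries (log2 change 0.73, edgeR adjusted p = 0.1015, no overlap). Ndufb3, a small subunit of the membrane arm with 763 exon bases, had 97.2, 70.3, 69.3 and 43.5 CPM in chronic and 83.0 to 154 CPM in healthy libraries (-0.70, adjusted p = 0.334, overlapping).

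Complexes II to IV had a median of -0.44 over 24 subunits and ATP synthase -0.41 over 17, with 0 called in either list by edgeR. At an unadjusted p under 0.05 stood 3 higher and 3 lower of the 24 and 2 higher and 2 lower of the 17, and DESeq2 called 3 and 2 higher. Among their members, Sdha, the flavoprotein of succinate dehydrogenase, had 736 to 888 CPM in chronic and 413 to 556 CPM in healthy libraries (log2 change 0.64, edgeR adjusted p = 0.0546). Atp5b, the catalytic beta subunit of ATP synthase, had 3190 to 3327 CPM in chronic and 1963 to 2591 CPM in healthy libraries (0.50, adjusted p = 0.126). Neither gene's groups overlapped.

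Messenger RNAs encoded by the mitochondrial genome stood lower. All 8 tested had a negative log2 change, with a median of -1.20, and 2 had every chronic library below every healthy one (1.95% over all genes). None of the 8 passed (3 at an unadjusted p under 0.05 in edgeR, 1 called by DESeq2). mt-Nd4, a complex I subunit (mitochondrial genome, 10167 to 11544), had 5.59, 20.2, 21.7 and 25.1 CPM in chronic and 82.0, 63.6, 72.9, 35.9 and 59.6 CPM in healthy libraries (log2 change -1.79 ± 0.41, edgeR adjusted p = 0.0693). These RNAs are made inside mitochondria, out of reach of the tagged cytosolic ribosomes. Their summed level was 140 to 273 CPM in chronic and 271 to 640 CPM in healthy IP, and in input it was 3054 to 7686 and 2831 to 5598 CPM.

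Neurofilaments, which set the calibre of axons, rose in 2 of their 3 classical chains and stood just outside the threshold in the other. Nefm, the medium chain (chromosome 14, 68082590 to 68124846, minus strand), had 1604, 1927, 1549 and 1377 CPM in chronic and 785, 899, 802, 1063 and 969 CPM in healthy libraries (log2 change 0.84 ± 0.14, edgeR adjusted p = 0.00695). Nefl, the light chain (chromosome 14, 68083863 to 68089095, plus strand), had 1202, 1676, 1549 and 1371 CPM in chronic and 853, 963, 954, 877 and 675 CPM in healthy libraries (0.75 ± 0.14, adjusted p = 0.0267, and 0.130 without chronic 3). Nefh, the heavy chain, had 198, 256, 237 and 175 CPM in chronic and 91.0, 136, 111, 137 and 117 CPM in healthy libraries (0.87 ± 0.19, adjusted p = 0.0546).

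All 3 chains were separated between the groups. The annotated spans of Nefm and Nefl overlap on opposite strands, and the counts do not use strand. Reads in any exons they share cannot be assigned, and whether they share exons is not given here. In input the log2 changes were -0.07 for Nefm, 0.02 for Nefl and 0.00 for Nefh.

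The 25 cytoskeleton and axon genes had 2 called higher (Nefm and Nefl), none lower and a median of 0.36. In 6 the chronic libraries were above all healthy ones (2.85% over all genes). Of 21 kinesin and dynein motors, 0 were called by edgeR, 8 higher and 1 lower stood at an unadjusted p under 0.05, and DESeq2 called 7 higher and 1 lower. In 7 motors the chronic libraries were all above and in 1 all below, against 2.85% and 1.95% of all genes. The motor median was 0.37 (0.25 with the length offset). Kif3a, a motor of anterograde transport, had 359, 334, 454 and 308 CPM in chronic and 215 to 236 CPM in healthy libraries (log2 change 0.68, edgeR adjusted p = 0.103). Gap43, a growth cone protein of the axon injury list, had 604, 495, 494 and 322 CPM in chronic and 651 to 809 CPM in healthy libraries (-0.60, adjusted p = 0.193). That list had 0 of 11 called in edgeR, with 1 higher and 1 lower at an unadjusted p under 0.05 and 1 called lower by DESeq2.

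Membrane traffic gave 3 called genes. Copg1, a subunit of the COPI coat that returns vesicles from the Golgi (chromosome 6, 87887814 to 87913595, plus strand), had 631, 785, 693 and 720 CPM in chronic and 334, 389, 322, 389 and 454 CPM in healthy libraries (log2 change 0.90 ± 0.15, edgeR adjusted p = 0.00695). Ap3b2, the neuronal form of an AP-3 adaptor subunit, had 213, 546, 400 and 336 CPM in chronic and 148 to 201 CPM in healthy libraries (1.09 ± 0.22, adjusted p = 0.0386). Chronic 1 lay close to the highest healthy library for Ap3b2, which was called in 1 of the 9 fits without a library (adjusted p = 0.183 without chronic 2). Of 21 vesicle coat and adaptor genes, a list added after the data were seen, these 2 were called. In 18 the log2 change was positive, with a median of 0.62 (-0.10 in input). In 6 the chronic libraries were above all healthy ones (2.85% over all genes).

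Atp6v1a, the ATP-hydrolysing subunit of the vacuolar proton pump that acidifies lysosomes and synaptic vesicles (chromosome 16, 44085402 to 44139705, minus strand), had 1362, 1317, 1789 and 1441 CPM in chronic and 913, 819, 818, 933 and 663 CPM in healthy libraries. The groups were apart (log2 change 0.83 ± 0.16, edgeR adjusted p = 0.0297, and 0.171 without chronic 3). Subunits of the pump were mixed. Of 16 tested, Atp6v1a included, 4 had chronic libraries above and 2 below all healthy ones (2.85% and 1.95% over all genes). The pump median was -0.00, or 0.23 with the length offset. Presynaptic genes were mixed too, with 0 of 29 called in edgeR, 5 higher and 4 lower at an unadjusted p under 0.05, and 3 higher and 1 lower in DESeq2. Sv2a, a synaptic vesicle protein, had 487, 435, 491 and 820 CPM in chronic and 309 to 369 CPM in healthy libraries (0.66, adjusted p = 0.168), and Vamp2, the vesicle SNARE of transmitter release, had 739 to 1171 CPM in chronic and 1318 to 1699 CPM in healthy libraries (-0.55, adjusted p = 0.113).

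Among ion and signalling genes, Slc8a2, a sodium and calcium exchanger of the plasma membrane, had 460, 357, 515 and 666 CPM in chronic and 171, 264, 248, 292 and 160 CPM in healthy libraries (log2 change 1.14 ± 0.23, edgeR adjusted p = 0.0389, and 0.156 without chronic 4). Ptk2b, a tyrosine kinase activated by calcium (chromosome 14, 66153257 to 66281052, minus strand), had 1093, 1197, 1474 and 1281 CPM in chronic and 618, 703, 705, 805 and 629 CPM in healthy libraries (0.87 ± 0.13, adjusted p = 0.00695). Their groups did not overlap. Bcas3 had 154, 171, 204 and 149 CPM in chronic and 41.4 to 92.0 CPM in healthy libraries (1.22 ± 0.22, adjusted p = 0.0166, and 0.109 without chronic 3). Aplp2, of the amyloid precursor protein family, had 758 to 1069 CPM in chronic and 301 to 533 CPM in healthy libraries (0.97 ± 0.20, adjusted p = 0.0386, and 0.151 without chronic 4).

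Gad1, the enzyme that makes the transmitter GABA and a marker of inhibitory neurons, had 573, 605, 569 and 744 CPM in chronic and 273, 344, 326, 415 and 229 CPM in healthy libraries (log2 change 0.97 ± 0.19, edgeR adjusted p = 0.0271, and 0.131 without chronic 4). It was separated between the groups and was the 1 called gene of 12 inhibitory neuron markers, whose median was 0.04. A noncoding gene, Gad1os, overlaps the span of Gad1 on the other strand, and the counts cannot tell apart reads in any exons they share. The summed inhibitory markers were 1397 to 1820 CPM in chronic and 1040 to 1524 CPM in healthy libraries, which overlapped.

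Channels and receptors gave no call. Of 27 voltage-gated channels, 0 passed in edgeR, 3 were higher at an unadjusted p under 0.05 and DESeq2 called 1. The channel median was 0.11, and -0.08 with the length offset. Scn8a, the sodium channel of the axon initial segment, had 166, 254, 222 and 225 CPM in chronic and 90.5 to 164 CPM in healthy libraries (log2 change 0.81, edgeR adjusted p = 0.162). Of 27 glutamate receptor and postsynaptic genes, 0 passed in edgeR, 4 higher and 2 lower stood at an unadjusted p under 0.05 and DESeq2 called 4 higher and 1 lower. Grin1, the obligate NMDA receptor subunit, had 526 to 782 CPM in chronic and 234 to 434 CPM in healthy libraries (0.80, adjusted p = 0.103), and Camk2b 1855 to 2019 against 1195 to 1499 CPM (0.53, adjusted p = 0.0753).

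In protein quality control, Hsph1, a large chaperone of the HSP110 family (chromosome 5, 149614287 to 149636376, minus strand), had 928, 1208, 1219 and 1051 CPM in chronic and 613, 686, 612, 743 and 524 CPM in healthy libraries (log2 change 0.79 ± 0.14, edgeR adjusted p = 0.0166, and 0.109 without chronic 3). Ubr4, a ubiquitin ligase of the N-degron pathway, had 77.2, 87.8, 197 and 125 CPM in chronic and 26.4 to 56.2 CPM in healthy libraries (1.39 ± 0.28, adjusted p = 0.0386, and 0.184 without chronic 3). Neither gene's groups overlapped. Of 22 heat shock chaperones, Hsph1 was called. Chronic libraries were above all healthy ones for 8 (2.85% over all genes) and below for none (1.95%). The list median was 0.37 against -0.08 in input. DESeq2 called 6 of the 22 higher.

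Proteasome subunits had 0 of 31 called in edgeR, 2 higher at an unadjusted p under 0.05 and 2 higher in DESeq2, with a median of 0.04. The 2 in edgeR were Psmd1 and Psmd2, the large scaffold subunits of the regulatory particle, at 133 to 193 against 68.9 to 95.2 CPM and at 465 to 626 against 289 to 362 CPM (edgeR adjusted p = 0.0546 for each). The unfolded protein and integrated stress response gave 0 of 23 in edgeR, 6 higher at an unadjusted p under 0.05 and 1 in DESeq2. Asns, asparagine synthetase, a target of the integrated stress response, had 317, 374, 333 and 293 CPM in chronic and 151 to 180 CPM in healthy libraries (log2 change 0.99, adjusted p = 0.0774). Of 22 translation factors, 0 passed in edgeR, 5 higher and 4 lower stood at an unadjusted p under 0.05, and Eef2, the translocase of elongation, had 1954 to 2510 against 1159 to 1582 CPM (0.63, adjusted p = 0.0546). DESeq2 called 3 of these 22 higher and 1 lower.

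Promoter sequence was read for the called genes because several of them changed in the same direction. RefSeq's promoter table (GRCm38.p6, 300 bases around each start) held 19 of the 26 genes, with 24 promoters among them since some genes have more than 1 start. Both strands were searched for 5 motifs. The NRF1 motif, whose factor acts on nuclear genes of mitochondria among others, was searched by its consensus and stood in 4 of the 19 genes (Copg1, Immt, Pygb and Ubr4), while over all 32851 promoters the share, counted per promoter and not per gene, was 4.60%. The heat shock element stood in 1 (Hsph1) against 0.603%. The gamma-activated site TTCNNNGAA stood in 2 (Aldoc and Ap3b2) against 8.30%, and the interferon-stimulated response element (3.44%) and the ERR site TCAAGGTCA (0.423%) in 0. The called genes are mostly abundant ones, and the share among promoters of equally abundant genes was not computed. These matches describe the letters in the window and show no binding. The lines give 3 of them 5′ to 3′ in the direction of the gene, with the motif in capitals and its first base at 36 bases after, 58 before and 54 before the RefSeq start.
Hsph1, chr5:149636287-149636308, minus strand: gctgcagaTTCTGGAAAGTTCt
Pygb, chr2:150786728-150786757, plus strand: ctctcgcaaaGCGCAGGCGCaatccgtatg
Copg1, chr6:87887876-87887905, plus strand: gcgcagttgtGCGCAGGCGCagacaacaga

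The gene that fell was Jpt1, which codes for a small protein related to the fly microtubule protein Jupiter (chromosome 11, 115497353 to 115514387, minus strand). It had 94.7, 79.8, 64.3 and 58.6 CPM in chronic and 172, 169, 145, 137 and 183 CPM in healthy libraries, with no overlap. The log2 change was -1.12 ± 0.22 (edgeR adjusted p = 0.0325, and 0.147 without chronic 4).

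Cytosolic ribosomal protein genes stood mostly below healthy. Of 79 tested, 75 had a negative log2 change, with a list median of -0.41. In 4 all chronic libraries were below all healthy ones (1.95% over all genes), while 0 passed in edgeR (6 lower at an unadjusted p under 0.05) or in DESeq2. Rpl28, of the large subunit, had 134, 141, 118 and 105 CPM in chronic and 196, 148, 233, 159 and 275 CPM in healthy libraries (log2 change -0.70, edgeR adjusted p = 0.268). In input, 7 of 80 ribosomal protein genes were called higher and none lower, with a median of 0.13.

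Immediate early genes, which follow neuronal activity, had 17 of 18 members with a negative log2 change and a median of -0.83 (-0.60 in input). None of the 18 was called in edgeR, 6 were lower at an unadjusted p under 0.05, and DESeq2 called 1 lower. Egr1, a transcription factor induced by synaptic activity, had 281, 247, 312 and 262 CPM in chronic and 515, 658, 553, 345 and 449 CPM in healthy libraries (log2 change -0.87 ± 0.19, edgeR adjusted p = 0.0546), without overlap. Egr4 had 151, 93.0, 106 and 82.0 against 108 to 279 CPM, which overlapped (-0.80, adjusted p = 0.298).

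**Figure D2:**
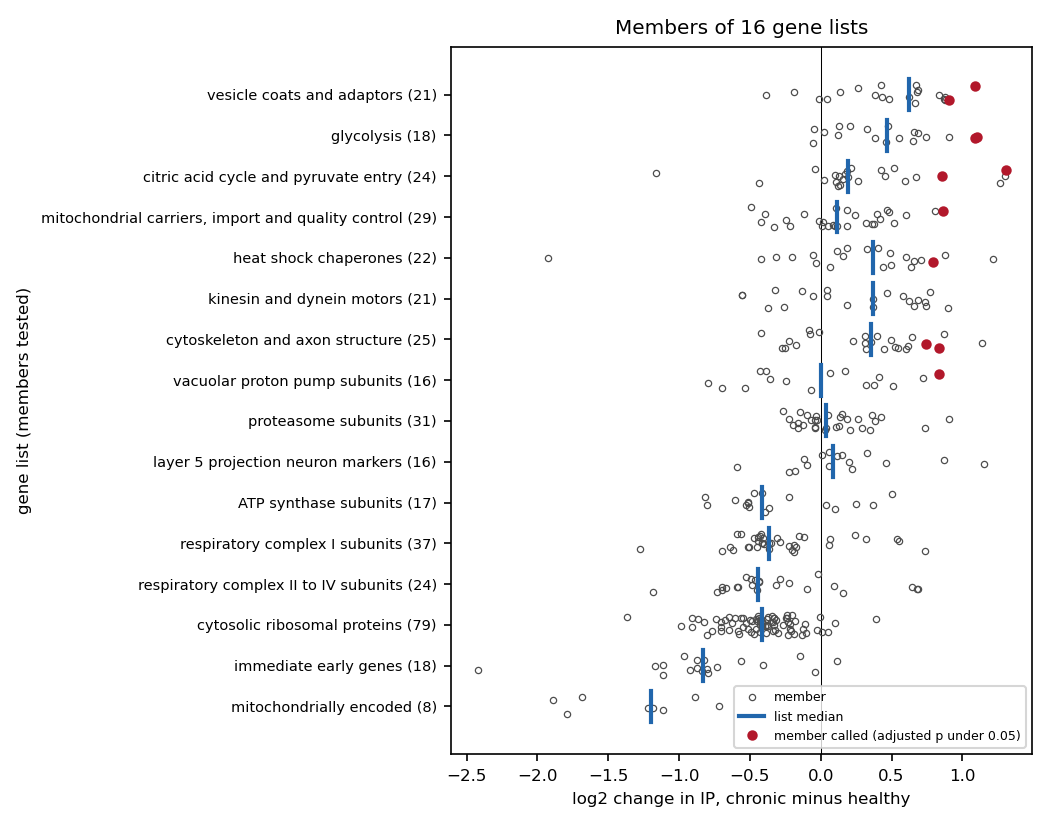
Log2 change in IP, chronic minus healthy, of the tested members of 16 gene lists, with a bar at each list's median and filled points for called members. Glycolysis has a median of 0.47 and mitochondrially encoded genes -1.20.

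The change in IP followed gene length. In 5 equal groups of the tested genes by summed exon length, from the shortest (57 to 2087 bases) to the longest (6574 to 41324 bases), the median log2 change was -0.31, -0.08, -0.02, 0.04 and 0.17. None of the called genes lay in the shortest group, 1 higher and 1 lower lay in the next, and 8 higher genes lay in each of the other 3. In input the 5 medians lay between -0.01 and 0.01. The slope of log CPM on log exon length, relative to the mean of the libraries, was 0.036, -0.054, 0.140 and 0.222 in chronic and -0.077, 0.026, -0.089, 0.017 and -0.223 in healthy IP libraries, which overlapped (exact two-sided permutation test, p = 0.0714, adjusted p = 0.214). The part of this slope in the results by gene was not tested beyond the offset described next.

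Gene groups differ in length, and their medians moved when it was modelled. Median exon length was 1322 bases for complex I, 1535 for ribosomal proteins, 6310 for motors and 3122 for glycolysis, against 3848 over all genes tested. With an offset per library for exon length, the complex I median moved from -0.37 to -0.01, the ribosomal protein median from -0.41 to -0.13 and the mitochondrially encoded median from -1.20 to -0.90. Of the 26 called genes, 24 were called with this offset, under which 57 genes were higher and 14 lower. Ubr4 and Immt were the 2 that missed it, at adjusted p = 0.0686 and 0.0594 in edgeR.

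**Figure D3:**
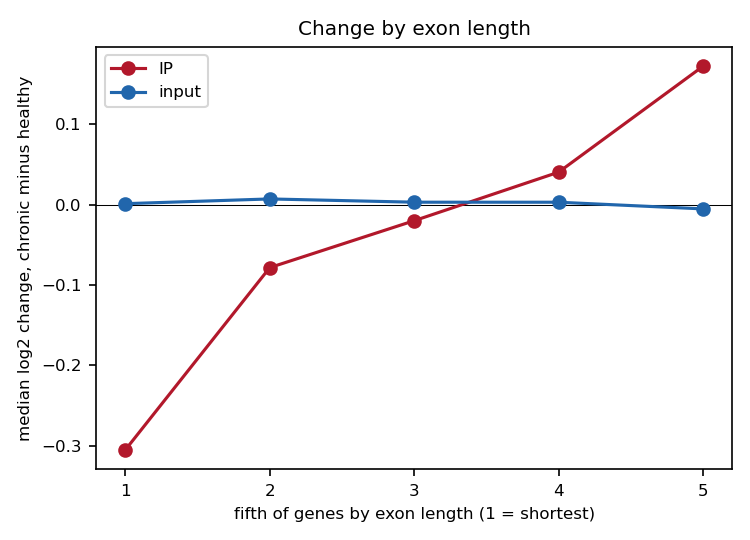
Median log2 change, chronic minus healthy, over 5 equal groups of the tested genes ordered by exon length, for IP and for input. The IP median goes from -0.31 in the shortest to 0.17 in the longest group, and the input medians stay between -0.01 and 0.01.

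Markers of other cell types were present in the pulldown and were checked library by library. Summed astrocyte markers were 2735, 4007, 3422 and 5192 CPM in chronic and 1545, 1861, 2139, 2227 and 2100 CPM in healthy IP, so every chronic library was above. Of 12 astrocyte markers, 1 was called (Aldoc), 10 had a positive log2 change and the median was 1.04, or 0.23 without chronic 4. Gfap, the intermediate filament of reactive astrocytes, had 86.5, 259, 194 and 297 CPM in chronic and 25.1, 91.6, 42.0, 50.5 and 11.6 CPM in healthy libraries (log2 change 2.24 ± 0.45, edgeR adjusted p = 0.0546). Gfap was also higher in input (1.27, adjusted p = 0.00142). In input the astrocyte markers summed to 3206 to 4219 CPM in chronic and 2520 to 2955 CPM in healthy libraries.

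Microglia markers summed to 50.6, 59.5, 58.6 and 219 CPM in chronic and 19.7 to 58.0 CPM in healthy IP, with chronic 4 far above the rest. Their median log2 change was 1.498 over 11 genes and -0.34 without chronic 4. None of the 11 passed at an adjusted or an unadjusted p under 0.05 in edgeR. DESeq2 called 0, but it gave no adjusted p for Csf1r and Tmem119. Csf1r, the receptor that keeps microglia alive, had 8.35, 25.6, 19.1 and 63.3 CPM in chronic and 1.19 to 19.5 CPM in healthy libraries. Tmem119, specific to microglia, was at 0 in chronic 3 and in 4 of the 5 healthy libraries.

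Oligodendrocyte markers summed to 1291, 1600, 1238 and 3097 CPM in chronic and 1073 to 1422 CPM in healthy IP, which overlapped. None of 12 was called in edgeR, 3 were higher at an unadjusted p under 0.05 and DESeq2 called 2. Mag, a myelin glycoprotein, had 66.5, 150, 127 and 284 CPM in chronic and 28.6 to 77.6 CPM in healthy libraries (log2 change 1.44, edgeR adjusted p = 0.104). Of 13 leukocyte markers, 10 were at 0 in all 9 libraries, among them the T cell receptor chains Cd3e and Cd3g, and the list summed to 4.67 to 11.8 CPM in chronic and 0 to 12.3 CPM in healthy IP.

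Enpp2, the secreted enzyme autotaxin, which makes lysophosphatidic acid, is abundant in choroid plexus and oligodendrocytes. It had 224, 243, 199 and 380 CPM in chronic and 89.4, 134, 148, 125 and 69.4 CPM in healthy libraries (log2 change 1.21 ± 0.25, edgeR adjusted p = 0.0406, and 0.172 without chronic 4). Ttr, the leading choroid plexus gene, was at 57.3, 47.0, 0 and 77.4 CPM in chronic and at 0 to 53.9 CPM in healthy libraries (log2 change 1.17, edgeR adjusted p = 1). Of 10 choroid plexus markers, a list added after the data were seen, 4 were tested, all 4 had a positive log2 change and Enpp2 was called, with a median of 1.19, or 0.88 without chronic 4. They summed to 294, 302, 199.5 and 478 CPM in chronic and 97.5, 181, 209, 128 and 69.4 CPM in healthy IP, which overlapped, and Enpp2 is the main part of these sums. In input the sums were 110 to 488 and 75.6 to 319 CPM. What these other cell types contribute to the called genes was not tested. Fewer cells of a type and less RNA per cell cannot be told apart in such bulk samples. With chronic 4 left out, 13 genes were called, all higher, and H2-K1, Enpp2, Slc8a2, Gad1, Aplp2, Jpt1, Ubr4, Immt, Aldoc, Ap3b2, Atp6v1a and Nefl were not among them. Several log2 changes were then about as large: 1.38 for Ubr4, 1.14 for Ap3b2, 0.87 for Immt, 0.85 for Atp6v1a and 0.77 for Nefl. Others were smaller in size, with 2.45 for H2-K1, 0.97 for Enpp2, 0.97 for Slc8a2, 1.01 for Aldoc, 0.88 for Gad1, 0.85 for Aplp2 and -1.02 for Jpt1.

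**Figure D4:**
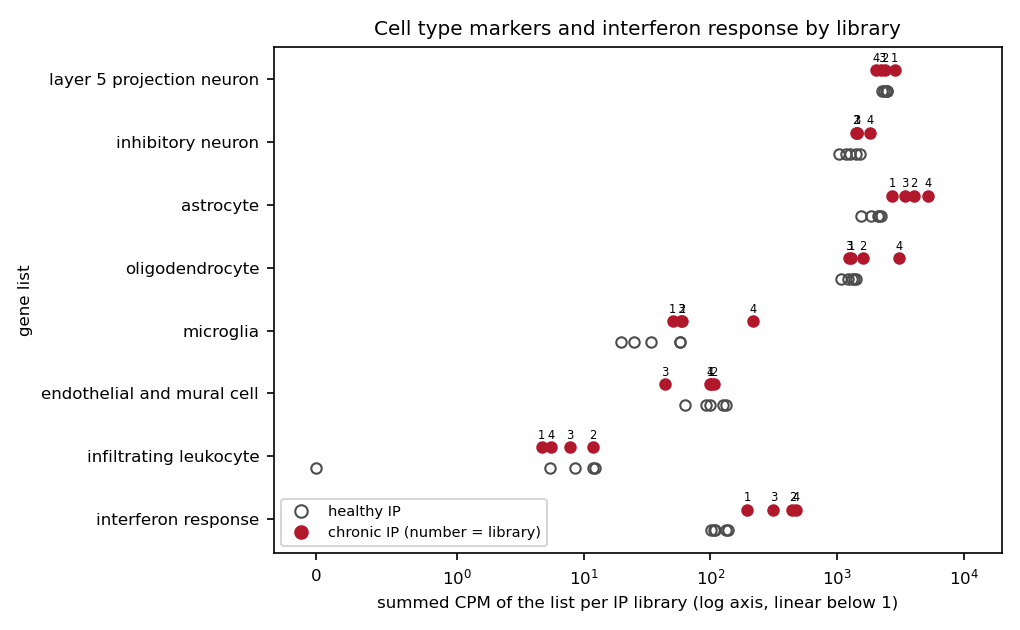
Summed CPM of cell type marker lists and of the interferon response list in each IP library, on a log axis that is linear below 1, with the number of each chronic library beside its point. Chronic 4 has the highest astrocyte, oligodendrocyte and microglia sums (5192, 3097 and 219 CPM), and the layer 5 sums overlap.

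The content of the pulldown was checked with layer 5 markers. These markers summed to 2838, 2382, 2236 and 2020.8 CPM in chronic and 2249 to 2492 CPM in healthy IP, against 1430 to 1647 and 1412 to 1675 CPM in input. Each IP library thus held more of them than each input library. None of 16 was called in edgeR, 1 higher (Nefh) and 1 lower (Pou3f1) stood at an unadjusted p under 0.05 and DESeq2 called 1. Colgalt2, whose regulatory sequence drives the tag (chromosome 1, 152399830 to 152510695, plus strand), had 96.2, 76.3, 86.9 and 64.5 CPM in chronic and 89.7, 71.6, 46.3, 70.5 and 44.1 CPM in healthy libraries. These values overlapped (exact two-sided permutation test, p = 0.183, adjusted p = 0.365). In input the mean of Colgalt2 was 54.7 CPM in chronic and 56.5 CPM in healthy libraries, so healthy 3 and 5 in IP lay below it. In healthy libraries, inhibitory neuron markers summed to 1040 to 1524 CPM in IP and 1471 to 1818 CPM in input, which overlapped. In chronic libraries they summed to 1397 to 1820 CPM in IP and 1454 to 1693 CPM in input, which overlapped too. Astrocyte markers were lower in IP than in input in healthy libraries (1545 to 2227 against 2520 to 2955 CPM). In chronic libraries their sums overlapped (2735 to 5192 against 3206 to 4219 CPM). Upper layer and layer 6 markers summed to 1385 to 1852 CPM in healthy IP and 2115 to 2468 CPM in healthy input. In chronic libraries they summed to 1436 to 1755 CPM in IP and 2033 to 2349 CPM in input. Chronic medians were also lower in IP than in input for oligodendrocyte (1446 against 3152 CPM) and microglia markers (59.0 against 113 CPM).

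Sting1, the adaptor of cytosolic DNA sensing that gives the series its title, was too low for the gene filter in IP, where the symbol table lists it under its older name Tmem173. It had 0, 6.999, 17.5 and 2.96 CPM in the chronic libraries and 0 in the 5 healthy libraries. The raw p of an exact two-sided permutation test was 0.0476, and 0.214 adjusted over the 6 single values tested. Against a floor of 3 counts over the healthy group, the chronic level was at least 164.8-fold higher, a bound that covers counting error only, and chronic 1 held no count. The raw p was 0.0179 without chronic 1, 0.107 without chronic 2, 3 or 4 and 0.143 without any 1 healthy library (exact permutation tests). In input, Sting1 was higher in chronic (log2 change 1.39, edgeR adjusted p = 0.0287). The change passed edgeR's test of a difference between IP and input (adjusted p = 0.0413), in a fit where IP shares its spread with the less variable input. The fitted log2 difference of 8.64 depends on the prior count, since all healthy IP libraries were at 0. Of the 11 tested members of the DNA sensing list, 0 were called in edgeR, 1 higher and 1 lower stood at an unadjusted p under 0.05, and DESeq2 called 0.

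Gpx4, the lipid peroxidase that protects cells from ferroptosis, had 304, 313, 190 and 136 CPM in chronic and 236 to 310 CPM in healthy libraries (log2 change -0.24 ± 0.34, adjusted p = 1 in edgeR). Of 28 ferroptosis, iron and antioxidant genes, 0 were called in edgeR, 1 higher and 2 lower stood at an unadjusted p under 0.05 and DESeq2 called 1. Acsl4, which loads membranes with oxidisable lipids, had 80.0, 87.1, 42.8 and 66.7 CPM in chronic and 21.2 to 31.6 CPM in healthy libraries (1.44 ± 0.39, adjusted p = 0.126), without overlap. Lpcat3, of the same lipid pathway, was at 0 in all 4 chronic libraries and in healthy 5 and at 2.24 to 11.2 CPM in the other healthy libraries, so the groups met at 0 (adjusted p = 0.179).

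Among further lists, 1 of 29 mitochondrial carriers, import and quality control genes was called (Immt), with a median of 0.12. In the lists that follow edgeR called 0. Cholesterol synthesis had a median of 0.22 over 20 genes, with 3 higher at an unadjusted p under 0.05 and 0 in DESeq2. Sodium and calcium pumps had all 9 log2 changes positive and a median of 0.32, with 4 higher at an unadjusted p under 0.05 and 1 in DESeq2. Nuclear noncoding RNAs, which ribosomes do not carry, had all 7 negative and a median of -0.81, with 2 lower at an unadjusted p under 0.05 and 0 in DESeq2. Genes of NF-kB and cytokines (11 tested, median 0.30) and of apoptosis (17 tested, median -0.27) each had 1 higher at an unadjusted p under 0.05 and 0 in DESeq2.

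The input of the same groups shows what the tissue as a whole did. There, 382 genes were higher (2.33%) and 67 lower (0.409%) of 16381 in edgeR. Of the 25 genes higher in IP, 3 were called higher in input, among them H2-K1 (log2 change 2.90) and Aldoc (0.24). For 23 of the 26 called genes the input change was under 0.25 on the log2 scale in either direction. Interferon genes were called higher in input for 24 of 32, with a median of 1.97. Without the input library chronic 4, 250 genes were called. The chronic libraries of input had interferon sums of 233 to 453 CPM and the healthy ones 116 to 150 CPM.

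Whether the change differed between IP and input was tested in a fit over all 28 libraries. In it, 170 of 16580 genes passed (1.03%), 105 with a higher change in IP and 65 with a lower one. IP shares its spread with the far less variable input in this fit, so the p-values may be too small. For Pcx, the SE of the difference was 0.198, below the 0.216 of its IP change alone. Of the 26 called genes 20 passed, but they had been picked on the IP side of this difference, so their number is a description. The 170 fell to 56, 43 and 69 without replicate 2, 3 or 4 of chronic, and to 43, 63, 62, 101 and 68 without replicate 1, 2, 3, 4 or 5 of healthy. Among the genes called in IP, Lrpprc had the largest difference (1.505 ± 0.25 on the log2 scale, edgeR adjusted p = 0.00261), followed by Pygb (1.44 ± 0.22, adjusted p = 0.00174). For H2-K1 the difference was 0.37 ± 0.76 (edgeR adjusted p = 1), so its change was not shown to differ between the fractions.

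Among the genes not called in IP alone, the highest differences under the naming rule were those of Wdr36, a protein of ribosome assembly (2.001 ± 0.51), Heatr5b (1.90 ± 0.47) and Scfd2 (1.65 ± 0.39), each with all chronic above all healthy IP libraries. Wdr36 had 66.4, 85.2, 110.2 and 49.98 CPM in chronic and 11.6 to 24.95 CPM in healthy IP. On the other side stood genes with no count in the chronic IP libraries. Ccdc153 had 2.19 to 21.7 CPM, Fgfbp3 3.41 to 12.6, Uvssa 2.398 to 11.2 and Itga2b 2.11 to 3.81 CPM in the healthy ones. With a floor of 3 counts in all chronic libraries together, Ccdc153 was at least 175.6-fold lower, Fgfbp3 147.8-fold, Uvssa 132.4-fold and Itga2b 62.9-fold, which covers counting error and not the spread between IP libraries. Their input changes were between -0.19 and 0.20.

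**Figure D5:**
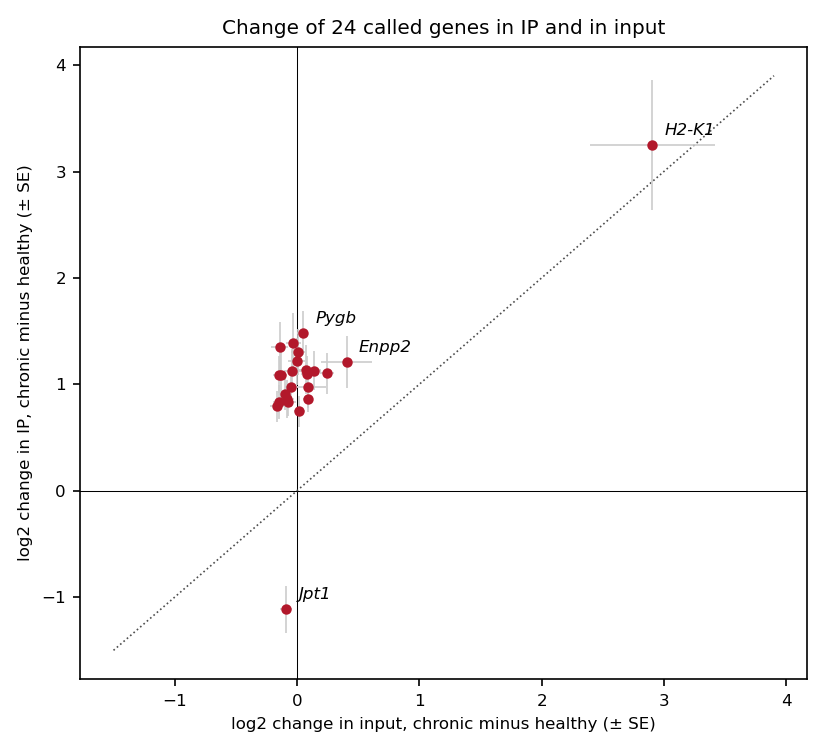
Log2 change, chronic minus healthy, of 24 of the 26 called genes in IP against input, with SE bars and a dotted line of equal change. H2-K1 (3.25 and 2.90) lies near the line, and 22 of the 24 genes lie within 0.25 of zero on the input axis.

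The acute phase gives the same genes at 15 days against the same 5 healthy libraries, so both comparisons share their controls. The called genes were picked against these healthy libraries, so only values are set side by side. H2-K1 stood at 3.15 ± 0.60 in acute and 3.25 ± 0.61 in chronic, and Nefm at 0.78 ± 0.13 and 0.84 ± 0.14. Lrpprc was at 0.06 ± 0.22 in acute and 1.35 ± 0.23 in chronic, Pfkp at 0.23 ± 0.17 and 1.09 ± 0.17, and Atp6v1a at 0.05 ± 0.15 and 0.83 ± 0.16. Whether acute and chronic IP differ was not tested here.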

How the data were processed

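Per the file headers, the authors counted read pairs per gene with featureCounts 1.5.1 on exons of the Ensembl release 79 annotation of GRCm38, without strand, and the deposited values are raw counts. The submitters' processing notes name STAR 2.4 and DESeq2. The header command names 36 alignment files, of which 28 columns were held and used, each matched to a library by its description. Of 43629 genes, 42462 had a symbol (97.3%). Each gene's summed exon length is also deposited.

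The analysis ran in edgeR 4.0.16 under R 4.3.3, with filterByExpr (minimum count 10, minimum total 15), TMM scaling and the robust quasi-likelihood F test over the 14 IP libraries, the 14 input libraries or all 28, with Benjamini-Hochberg adjustment over all genes tested and a threshold of 0.05. Values are CPM on TMM-scaled sizes. The pipeline was tested on simulated data. Alternatives were DESeq2 1.42.0, its size factors, voom in limma 3.58.1, other filters and library sets, a replicate block, each library left out, and, chosen after seeing the data, offsets for length and GC content and the loss of the 2 libraries with the fewest genes. Figures used Python 3.11.15 and matplotlib 3.10.9.

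The comparison and the gene lists were chosen with earlier results of these data known. Named were the 15 higher and 15 lower called genes with the largest change, no overlap between groups and a mean log2 CPM not under 1, up to 4 called members per list (or the 2 with the smallest p), 5 and 5 genes of the difference between fractions, and Sting1, Gpx4 and Colgalt2. Gfap, Ifit3, Ttr and the called genes Aplp2, Copg1 and Ptk2b were named after their values were seen. Promoters are RefSeq's. Values of some called genes are not reported here.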

Additional observations from a re-analysis of the deposited data

Results flagged for a closer look

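A library far from the others of its group was found in 18 of 170 groups of values tested, where chance gives about 1 in 20 for independent, normal values. The values here share libraries, and some groups were at 0 in all but 1 library, so that rate is only a rough guide. Chronic 4 was the library in 8 of the 18. In chronic 4 these were H2-K1 at 127 CPM, Aplp2 at 1069 CPM, C4b at 140 CPM, Rasgrf2, a neuronal exchange factor for Ras, at 199 CPM and Sv2a at 820 CPM, and the summed markers of inhibitory neurons at 1820 CPM, of oligodendrocyte precursors at 269 CPM and of microglia at 219 CPM. Elsewhere, Uqcrc2, a core subunit of complex III, was at 512 CPM in chronic 2, and the endothelial and mural markers summed to 43.7 CPM in chronic 3. Among healthy libraries, Sv2a was at 309 CPM and the oligodendrocyte precursor sum at 77.5 CPM in healthy 1. Healthy 2 had Cd74 at 1.43 CPM, Pou3f1 at 343 CPM and Ifit3 at 10.9 CPM. Healthy 4 had Lonp2 at 109 CPM and Tmem119 at 4.77 CPM, and healthy 5 had Pygb at 71.6 CPM. What sets these libraries apart was not tested.

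By edgeR's test of the difference itself, the chronic change differed between IP and input for 43 of the 70 genes with values in the text. Over all genes it was 170 of 16580 (1.03%). Most of the 70 were picked by their IP change or by this difference, so the 43 is a description. In this fit IP also shares its spread with the less variable input. Among genes called in IP, which were picked on that side, the IP change exceeded the input change on the log2 scale by 1.44 for Pygb, 1.43 for Ubr4, 1.505 for Lrpprc, 1.31 for Pcx, 1.23 for Bcas3, 0.996 for Aldh2, 1.17 for Lonp2, 1.03 for Ogdhl, 1.25 for Pfkp, 1.23 for Ap3b2, 1.03 for Gad1, 1.01 for Copg1, 0.79 for Ptk2b, 0.96 for Immt, 0.92 for Nefm, 0.99 for Atp6v1a, 0.97 for Hsph1 and 0.74 for Nefl.

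Genes not called in IP were picked too, by a small p in IP within their list or by the difference between fractions. Those picked by the difference were Wdr36, Heatr5b, Scfd2, Ccdc153, Fgfbp3, Uvssa, Itga2b and mt-Nd4. Among genes not called in IP, the IP change was higher by 0.88 for Nefh, 0.68 for Sdha, 0.85 for Ndufs1, 0.78 for Uqcrc2, 1.09 for Psmd1, 0.82 for Psmd2, 0.57 for Eef2, 0.66 for Eif3c, 0.54 for Camk2b, 0.87 for Kif3a, 0.85 for Dync1i1, 1.11 for Asns, 0.84 for Rasgrf2, 1.90 for Heatr5b, 2.001 for Wdr36 and 1.65 for Scfd2. The IP change minus the input change was -1.02 for Jpt1, -2.07 for mt-Nd4 and -1.53 for mt-Cytb. For 5 genes with no count in the chronic IP libraries the fitted difference was -10.49 for Ccdc153, -10.28 for Fgfbp3, -9.97 for Uvssa, -8.74 for Itga2b and -9.65 for Lpcat3; these values depend on the prior count and are no bound. The same holds for Sting1, at 0 in all healthy IP libraries, with a fitted difference of 8.64.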

How the results depend on the processing

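The count of called genes in IP depended on the analysis. Against 26 in the reported fit there were 54 with DESeq2 size factors, 287 with the DESeq2 Wald test, 67 with only the 9 libraries compared, 53 with voom sample weights, 157 among genes of at least 50 CPM, 71 with a length offset, 87 with a length and GC offset (these offsets were added after seeing the data) and 9 to 43 with 1 library left out. Fitting all 28 libraries together gave 2550, where IP shares its spread with the far less variable input. Without chronic 3 and healthy 5, the 2 compared libraries with the fewest genes detected (added after seeing the data), 2 genes were called. The split was 52 higher and 2 lower with size factors, 211 and 76 with DESeq2, 1140 and 1410 with all 28 libraries, 125 and 32 at 50 CPM, and 57 and 14 with the length offset.

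With a replicate block, 15 genes were called in IP and 28 in the difference between fractions. The deviations of same-numbered chronic and healthy IP libraries correlated at 0.10, -0.16, -0.02 and 0.18, and numbers 2 and 3 correlated best with another number. For IP and input libraries of the same number the correlations were 0.26, 0.04, 0.15 and 0.27 in chronic and 0.26, 0.30, 0.38, 0.30 and 0.0027 in healthy. Of these 9, 7 were over 0.1 and best with their own number, a hint from the data that some share a source, which the labels do not state. Since not every pair did so, the reported fits have no block.

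Input gave 449 calls, 706 with DESeq2 and 250 to 447 with 1 library left out. The difference between fractions gave 170, 47 without a filter, 956 with DESeq2 and 43 to 148 with 1 library left out. The difference in Sting1 CPM in IP, 6.88, ranged from 3.32 to 9.17 with 1 library left out. The causes of these shifts were not tested. Of 517 pairs of a called gene and a setting, 152 missed the threshold and 0 changed direction.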
